A study of Mus musculus with 6 samples.

Results

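The genes described here are 9 genes of calcium and phosphate absorption and of the vitamin D response in mouse intestine: the receptor genes Vdr and Rxra, the calcium genes Trpv6, S100g and Atp2b1, the phosphate transporter genes Slc34a2, Slc20a1 and Slc20a2, and the vitamin D target Cyp24a1. They are 9 of the 18159 genes in the expression table and were found by gene symbol. The set was chosen by function and selected on the measured contrast between the genotypes, in which Slc20a1 was higher and S100g lower. The members' differences between the genotypes are therefore a description, and no p-value is given for them.

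RNA was sequenced from intestinal epithelial cells of mice aged 12 days, in 3 wild-type libraries and 3 libraries that the sample titles call Git2-knockout. The genotype field of the latter says knockdown, and no source used here gives the altered part of Git2. The titles speak of epithelial cells, while the design text calls every sample an enteroid, a culture of gut epithelium grown as small organoids. The labels do not say whether the 3 libraries of a genotype are different animals or cultures, and p-values therefore reflect the spread among libraries, which may be technical. Both groups share age, tissue and cell type, and the labels name no diet, treatment or calcium and vitamin D status.

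Dietary calcium crosses an enterocyte in steps. It enters at the brush border through the channel Trpv6, is carried through the cytosol by the small binding protein calbindin-D9k, encoded by S100g, and is pumped out at the basolateral side by the calcium ATPase of Atp2b1. Calcitriol, the active form of vitamin D, drives this route through the vitamin D receptor Vdr, which binds DNA together with the retinoid X receptor Rxra, and it also induces Cyp24a1, the enzyme that breaks calcitriol down. Phosphate enters through the sodium-phosphate cotransporter of Slc34a2, the main one of the small intestinal brush border, and through Slc20a1 and Slc20a2, related sodium-phosphate transporters found in most tissues. In suckling pups calcium uptake depends less on vitamin D than after weaning.

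Promoter windows are shown for the 3 members that passed the threshold of the comparison below. A link between sequence motifs and the differences in expression was not tested. The 250 bases before each start site came from RefSeq, build GRCm38.p6, in which 7 of the 9 members had an entry, with 10 windows in all. The expression table was made on GRCm39, so these positions do not carry over to it. Capitals mark AGGTCA, the half-site read by nuclear receptors, in either orientation (TGACCT on the other strand), and CACGTG, the E-box of basic helix-loop-helix factors.
S100g, chrX:162964600-162964849, minus strand: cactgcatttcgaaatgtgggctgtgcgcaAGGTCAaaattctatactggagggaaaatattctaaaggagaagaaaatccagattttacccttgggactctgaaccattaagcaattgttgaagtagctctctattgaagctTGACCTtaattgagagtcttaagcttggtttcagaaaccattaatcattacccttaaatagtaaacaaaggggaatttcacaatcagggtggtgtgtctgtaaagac
Slc20a1, chr2:129198523-129198772, plus strand: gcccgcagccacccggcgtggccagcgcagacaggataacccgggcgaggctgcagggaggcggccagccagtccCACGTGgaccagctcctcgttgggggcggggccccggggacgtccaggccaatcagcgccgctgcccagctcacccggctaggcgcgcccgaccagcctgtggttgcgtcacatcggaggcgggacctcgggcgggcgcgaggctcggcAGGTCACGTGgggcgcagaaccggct
Slc34a2, chr5:53049103-53049352, plus strand: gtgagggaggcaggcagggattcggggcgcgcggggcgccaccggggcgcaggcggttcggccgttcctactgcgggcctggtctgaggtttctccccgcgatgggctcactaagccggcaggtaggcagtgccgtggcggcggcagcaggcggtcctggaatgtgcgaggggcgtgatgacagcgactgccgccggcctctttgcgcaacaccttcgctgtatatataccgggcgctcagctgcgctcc

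The S100g window held 2 half-sites, 220 and 107 bases before the start site. The Slc20a1 window held 1 half-site at 26 bases and E-boxes at 175 and 22 bases before the start, the last of which overlaps the half-site. A second Slc20a1 window had 1 half-site, 75 bases before its start. The Slc34a2 window had no match to either motif. Of the other members, Trpv6 had 2 half-sites, at 191 and 165 bases, and 1 of the Rxra windows had 2, at 87 and 48 bases. The windows of Vdr and Atp2b1 had none. Among all 32851 windows of the same length, 14% held a half-site and 6.02% an E-box. The full vitamin D response element of the DR3 type was searched as a pair of looser half-sites, RGKTCA, spaced by 3 bases. Here R stands for A or G and K for G or T. This pair was in 0.0396% of all windows and in none of the members' windows. A match is a string of letters and does not show that a factor binds there.

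The libraries held 18753649 to 19106581 estimated reads in wild-type and 16284414 to 16837158 in the libraries labelled Git2-knockout. Git2 itself was at 22.2, 23.7 and 22.7 CPM (reads per 1000000 reads of the library, scaled by TMM) in wild-type and at 17.4, 15.5 and 16.8 CPM in the others. Its log2 fold change of -0.47 (edgeR adjusted p = 4.44e-05) left 72.3% of the wild-type level, and on log2(TPM + 1) it was -0.24. Replicates differed by 1.59 to 6.79 times counting noise (chi-square per degree of freedom), and the largest values, 5.05 and 6.79, involved Git2-knockout library 1. The 10 epithelial marker genes, all detected in every library, summed to 10090 to 10530 CPM in wild-type and 9031 to 9287 CPM in the libraries labelled Git2-knockout, and 8 of them fell. Markers of fibroblasts and smooth muscle summed to 20.9 to 23.1 and 71.9 to 77.8 CPM (7 of 8 rose), and those of endothelium to 19.4 to 20.2 and 42.6 to 48.0 CPM (6 of 6 rose). B cell markers summed to 13.3 to 14.6 and 5.005 to 6.13 CPM (4 of 4 tested fell), and red blood cell markers to 22.1 to 23.8 and 71.7 to 81.6 CPM (3 of 4 rose). Of all genes tested, 29.6% rose and 27.4% fell at an edgeR adjusted p of at most 0.05. The part of the marker genes in the members' values was not tested. In bulk RNA, fewer cells of a type and less RNA per cell cannot be told apart.

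The vitamin D receptor and its partner were expressed at nearly equal levels, and neither passed the threshold between the genotypes. Vdr was at 126, 124 and 122 CPM in wild-type and at 106, 122 and 120 CPM in the libraries labelled Git2-knockout, means of 124 ± 2.20 and 116 ± 8.48 CPM (SD, n = 3 each). Every library of the second group lay below wild-type, but library 2, at 121.6 CPM, fell short of the lowest wild-type library, at 122.1 CPM, by less than either group's spread. The log2 fold change was -0.10 (SE 0.05, 95% interval -0.21 to 0.01).

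Rxra was at 135, 134 and 136 CPM in wild-type and at 126, 130 and 129 CPM in the other libraries, means of 135 ± 1.02 and 128 ± 2.21 CPM (SD, n = 3 each). The groups did not overlap, and the log2 fold change was -0.08 (SE 0.04, 95% interval -0.16 to 0.01). TPM also scales each gene by its transcript length and each library to a fixed sum. The median difference over all genes tested was 0.14 on log2(TPM + 1), beside 0.02 in CPM. In TPM both receptors overlapped between the groups. Vdr was at 60.0, 58.2 and 56.9 TPM in wild-type and 54.2, 65.2 and 63.4 TPM in the others. Rxra was at 58.7, 57.5 and 58.2 TPM in wild-type and 58.0, 62.9 and 62.0 TPM in the others. The ratio of Rxra to Vdr in TPM was 0.996 ± 0.02 in wild-type and 1.00 ± 0.06 in the libraries labelled Git2-knockout, so the partners kept the same proportion within their spread. Sign and size depended on the scale. On log2(TPM + 1) the difference was 0.06 for Vdr and 0.07 for Rxra, with the trend of fold change with transcript length over all genes removed it was -0.23 for each, and with that in GC content removed it was 0.02 for Vdr and 0.12 for Rxra. Each gene was past the threshold in 4 of 17 alternatives, Rxra in both directions among them.

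Of the calcium genes, the cytosolic carrier was lower, and the direction of the pump depended on the correction. S100g was at 62.2, 60.6 and 61.0 CPM in wild-type and at 36.7, 32.5 and 31.3 CPM in the libraries labelled Git2-knockout. Group means were 61.3 ± 0.82 and 33.5 ± 2.81 CPM (SD, n = 3 each), from 1135 to 1156 reads per wild-type library and 532 to 604 in the others. Every Git2-knockout library lay far below every wild-type library, and library 1 was the highest of its group. The log2 fold change was -0.87 (SE 0.06, 95% interval -0.998 to -0.75), that is 54.6% of the wild-type level (95% interval 50.1% to 59.6%).

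In TPM, the wild-type libraries had 295, 284 and 284 for S100g, against 187, 174 and 166 in the libraries labelled Git2-knockout, a difference of -0.71 on log2(TPM + 1). S100g makes one of the shortest transcripts of the table, 431 bases by the lengths that the counts and FPKM values imply. Over all genes the fold change followed transcript length, with a median log2 fold change of -0.26 in the quintile of the shortest and 0.24 in that of the longest transcripts. With this trend removed by a loess curve per library, the S100g value was -0.42, and with the trend in GC content removed as well it was -0.52. Across the 17 alternatives it ran from -0.99 to -0.42, so its size depends on the correction.

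Atp2b1, the basolateral calcium pump, was at 356, 346 and 329 CPM in wild-type and 352, 381 and 369 CPM in the libraries labelled Git2-knockout. The groups overlapped (344 ± 13.7 and 367 ± 14.2 CPM, SD, n = 3 each), with a log2 fold change of 0.10 (SE 0.04). The TPM values of Atp2b1 were 104, 99.6 and 94.2 for wild-type against 110, 125 and 119, without overlap. Its sign turned with the correction: the value was 0.24 on log2(TPM + 1), -0.16 after removal of the length trend, -0.14 after removal of the GC trend and -0.36 after removal of both, each of them past the threshold. In all, 7 of 17 alternatives passed it, in both directions. The Atp2b1 transcript, at 7039 bases, is long, and its GC content of 43.8% is low. The ratio of S100g to Atp2b1 in TPM went from 2.90 ± 0.10 to 1.499 ± 0.18 (SD, n = 3 each), with every library of the second group below every wild-type library. This ratio sets a short transcript against a long one. With both trends removed the log2 values of the genes lay closer together, S100g at -0.52 and Atp2b1 at -0.36. The size of the change in ratio thus depends on the correction.

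The brush border calcium channel and the calcitriol-degrading enzyme were at the limit of detection in both genotypes. Trpv6 had 2, 1 and 2 reads in the wild-type libraries and 1, 1 and 0 in the libraries labelled Git2-knockout. Cyp24a1 had 1, 0 and 1 reads in wild-type and 0, 1 and 0 in the others. A count of 0 allows up to 3 reads, which is 0.157 to 0.160 CPM in wild-type and 0.178 to 0.184 CPM in the other libraries. All 12 of these values were at or under that limit, so no fold is given and a difference between the genotypes was not detectable at this depth. These limits cover counting error only.

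**Figure D1:**
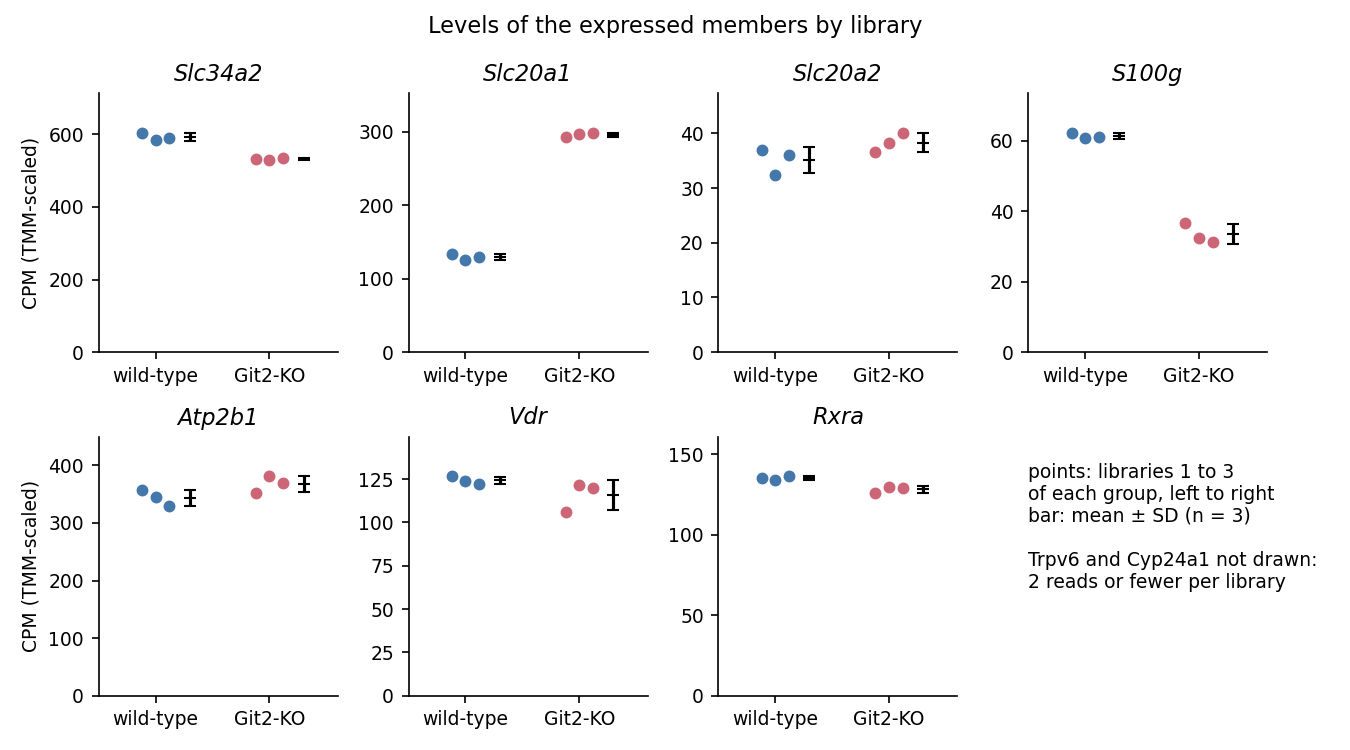
CPM of the 7 expressed members in each library, on linear axes that start at 0. Blue points are wild-type and red points Git2-knockout libraries, and the bars give mean ± SD over 3 libraries. Slc20a1 (129 against 296 CPM) and S100g (61.3 against 33.5 CPM) show the widest gaps, and the other genes lie close together.

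Among the phosphate transporters, Slc20a1 was more than doubled, while the intestinal cotransporter Slc34a2 was at 89.7% of its wild-type level in CPM. Slc20a1 was at 133, 125 and 129 CPM in wild-type and at 293, 296 and 298 CPM in the libraries labelled Git2-knockout, means of 129 ± 4.01 and 296 ± 2.56 CPM (SD, n = 3 each). The 3 libraries of each group agree within a few CPM, and the groups are far apart. The log2 fold change was 1.20 (SE 0.04, 95% interval 1.11 to 1.29), that is 2.29-fold. Across the 17 alternatives it ran from 1.10 to 1.36. Slc20a1 codes for PiT-1, which takes up phosphate with sodium in most cells and is also a retrovirus receptor.

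Slc34a2 was at 604, 584 and 591 CPM in wild-type and at 532, 530 and 534 CPM in the libraries labelled Git2-knockout. The groups did not overlap (593 ± 10.3 and 532 ± 2.31 CPM, SD, n = 3 each), with a log2 fold change of -0.16 (SE 0.04, 95% interval -0.23 to -0.08). The TPM values of the groups overlapped: the libraries were at 299, 286 and 287 TPM in wild-type and 284, 296 and 295 TPM in the others, and the value on log2(TPM + 1) was 0.005, where the median of all genes was 0.14. Removal of the length trend gave -0.27 and removal of both trends -0.30, and over the 17 alternatives it ran from -0.30 to 0.005.

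Slc20a2, which codes for the second transporter of the PiT family, was at 37.0, 32.4 and 36.1 CPM in wild-type and 36.5, 38.3 and 40.1 CPM in the libraries labelled Git2-knockout. The groups overlapped, and the log2 fold change was 0.12 (SE 0.06, 95% interval -0.01 to 0.26). Its TPM values were 21.8, 18.8 and 21.6 for wild-type against 24.3, 25.1 and 26.9, without overlap.

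TPM allows the 3 transporters to be set beside each other. They summed to 437, 415 and 421 TPM in wild-type and 590, 617 and 617 TPM in the libraries labelled Git2-knockout. Genes in general were also higher on this scale, with a median difference of 0.14 on log2(TPM + 1) over all genes tested. Slc34a2 made up 68.5% ± 0.41 of the sum in wild-type and 48.0% ± 0.13 in the others, and Slc20a1 made up 26.6% ± 0.10 and 47.8% ± 0.08 (SD, n = 3 each). Slc20a2 contributed 4.88% ± 0.31 and 4.18% ± 0.15. The ratio of Slc20a1 to Slc34a2 was 0.389, 0.384 and 0.392 in the wild-type libraries and 0.992, 0.997 and 0.998 in the others, so that the widely expressed transporter reached the level of the intestinal one.

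**Figure D2:**
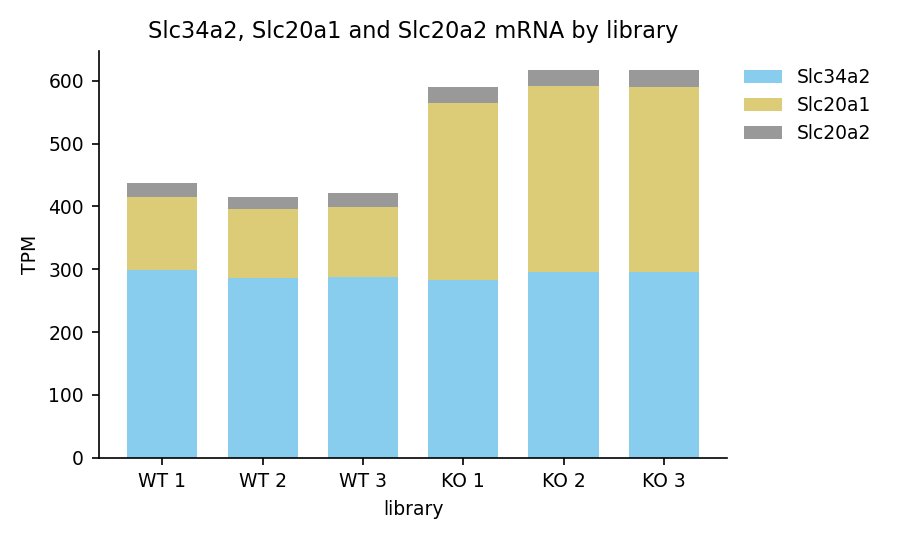
Stacked TPM of the 3 phosphate transporters among the members in each library, WT for wild-type and KO for the libraries labelled Git2-knockout. The Slc34a2 segment is of like height in all 6 bars, and the higher bars on the right come mostly from Slc20a1, which goes from 113 to 291 TPM on average. In CPM, Slc34a2 was lower in the Git2-knockout libraries (593 against 532).

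Levels per length give the order of the members by their wild-type means. Slc34a2 (291 ± 7.11 TPM) and S100g (288 ± 6.16 TPM) came first and overlapped, followed by Slc20a1 (113 ± 3.17 TPM) and Atp2b1 (99.3 ± 4.89 TPM), which did not overlap. Vdr (58.4 ± 1.55 TPM) and Rxra (58.1 ± 0.57 TPM) overlapped, Slc20a2 (20.7 ± 1.67 TPM) lay below them, and Trpv6 and Cyp24a1 had at most 0.08 TPM. In the libraries labelled Git2-knockout, Slc20a1 (291 ± 7.88 TPM) took the second place by mean, overlapping with Slc34a2 (292 ± 7.01 TPM), and S100g (176 ± 10.8 TPM) the third. Atp2b1 stayed above and Slc20a2 below the receptors, and Vdr (61.0 ± 5.89 TPM) and Rxra (60.9 ± 2.61 TPM) overlapped, as they did in wild-type.

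Counted together, 7 of the 9 members passed the filter on low counts, Trpv6 and Cyp24a1 did not, and 3 were past an adjusted p of 0.05: Slc20a1 higher, S100g and Slc34a2 lower. Of all 13558 genes tested, 29.6% were past the threshold and higher and 27.4% past it and lower. The members' median log2 fold change was -0.08, beside 0.02 over all genes. The CPM values of the groups did not overlap for 1 member that was higher and 4 that were lower, beside 32.3% and 30.6% of all genes tested. On TPM, 3 members were higher without overlap (Slc20a1, Atp2b1 and Slc20a2) and 1 lower (S100g), beside 46.4% and 16.2% of all genes tested, and the median on log2(TPM + 1) was 0.07, beside 0.14 over all genes. Since the members were selected on this contrast, these counts are read no further. Without Git2-knockout library 1, 5 members were past the threshold, as were 8343 of all 13814 genes then tested.

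**Figure D3:**
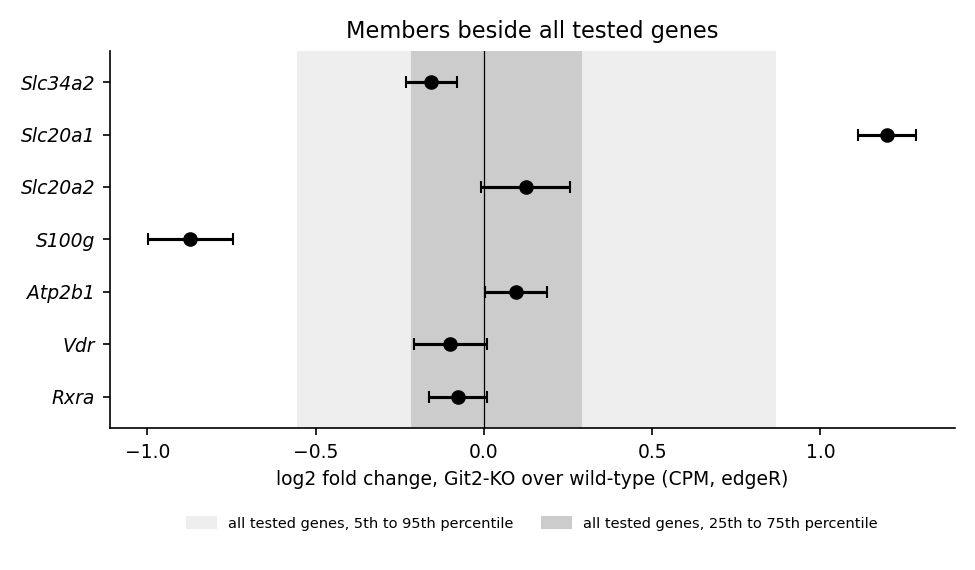
Log2 fold change of the 7 tested members, Git2-knockout over wild-type, with 95% intervals from edgeR. The dark band spans the central 50% of all tested genes (-0.21 to 0.29) and the light band their central 90% (-0.55 to 0.86): Slc20a1 at 1.20 and S100g at -0.87 lie outside the light band, and the other 5 lie inside the dark one.

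**Figure D4:**
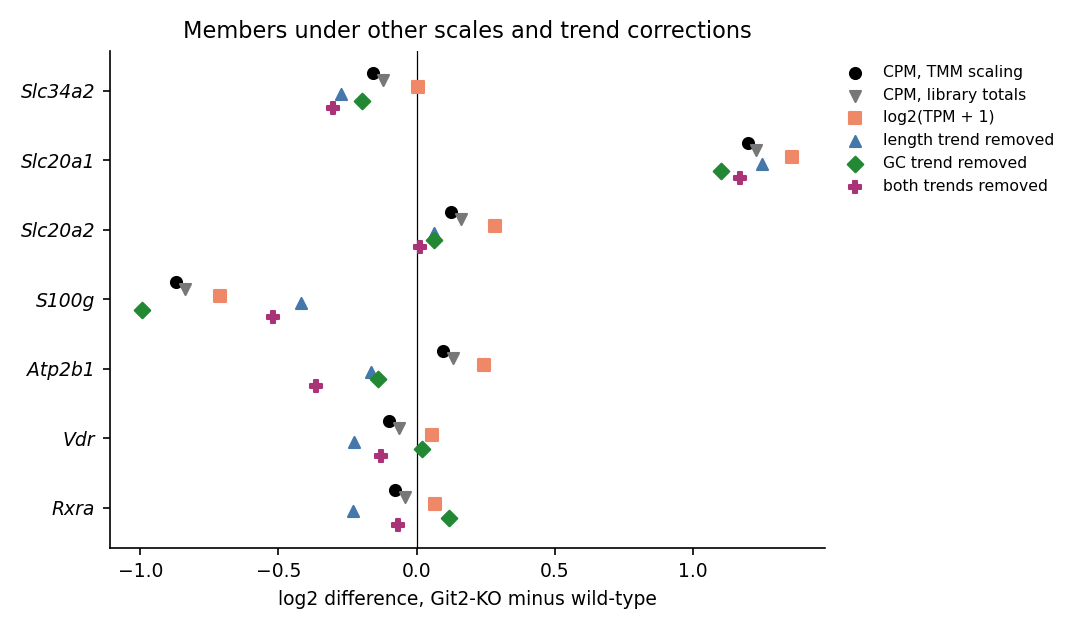
Log2 difference of each tested member, Git2-knockout minus wild-type, under 6 scales or corrections, each with its own symbol. Slc20a1 stays between 1.10 and 1.36 and S100g between -0.99 and -0.42, while Atp2b1, Vdr, Rxra and Slc34a2 have values on both sides of 0, Slc34a2 only by 0.005 on log2(TPM + 1).

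The length of transcript that a gene's counts and FPKM values imply depends on its mix of isoforms and was not used to choose the members. It was computed for the 7 expressed members. S100g (431 bases) and Slc34a2 (4126 bases) had the same length in every library, and Vdr ran from 4304 to 4305 bases, within the rounding of the deposited values. Slc20a1 ran from 2291 to 2335 bases and Slc20a2 from 3310 to 3527 bases, with overlap between the groups.

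Rxra and Atp2b1 were the exceptions. Rxra was at 4712, 4722 and 4702 bases in wild-type and at 4776, 4770 and 4761 bases in the libraries labelled Git2-knockout, 1.21% longer and without overlap. Atp2b1 was at 7001, 7021 and 7010 bases in wild-type and at 7073, 7058 and 7070 bases in the others, 0.80% longer and without overlap. An exact two-sided permutation test of 3 against 3 libraries gave p = 0.1 for each, the smallest it allows, and an adjusted p of 0.233 over the 7 members. Vdr, whose lengths differed only within rounding, had the same values. No gene could pass 0.05 in this test, so it cannot decide whether the lengths differed. Implied lengths did not overlap between the groups in 12% of the 7963 genes for which they could be computed.

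The other genes of these pathways were taken as 4 lists that hold no member, with 77 genes of which 62 were tested. In all, 21 rose, 20 fell and 21 did not pass the threshold, with a median log2 fold change of 0.002. Of all genes tested, 29.6% rose and 27.4% fell, with a median of 0.02. On log2(TPM + 1) 29 rose and 9 fell, and with the length and GC trends removed 13 rose and 27 fell. The balance of rises and falls in these lists thus moves with the scale, and so did that of all genes. Over all genes 51.9% of calls were upward with edgeR and 75.1% on log2(TPM + 1), beside 51.2% and 76.3% in the lists. With both trends removed the shares were further apart, 46.4% over all genes and 32.5% in the lists.

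Of 13 tested genes of vitamin D uptake, activation and receptor cofactors, 6 rose and 2 fell (median 0.11, beside 0.02 over all genes), and on log2(TPM + 1) the 8 genes past the threshold were all higher (median 0.27, beside 0.14). Lrp2, which codes for megalin, the endocytic receptor for the vitamin D carrier, rose from 29.3 ± 0.71 to 57.2 ± 7.53 CPM (log2 fold change 0.96, edgeR adjusted p = 9.61e-07). The nuclear receptor coactivator gene Ncoa2 rose from 52.5 to 74.0 CPM (0.49, edgeR adjusted p = 4.26e-06), and Med1, a Mediator subunit that contacts nuclear receptors, rose from 46.2 to 57.7 CPM (0.32, edgeR adjusted p = 2.41e-04). Rxrb, a second retinoid X receptor, fell from 56.8 to 46.5 CPM (-0.29, edgeR adjusted p = 1.44e-04). Among the most abundant genes of the list, Cubn, the partner of megalin, was at 1433 and 1327 CPM, the corepressor gene Ncor1 at 210 and 227 CPM, and Pdia3 at 634 and 635 CPM, none past the threshold. With both trends removed 4 genes were up and 5 down (median -0.09), Lrp2 was at 0.45, Ncoa2 at 0.18, Med1 at 0.10 and no longer past the threshold, and Cubn was lower at -0.78. The fall of Rxrb was lost on log2(TPM + 1) (-0.12) and with the GC trend removed (-0.09). Cyp2r1, Gc and Rxrg were too low to test.

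Other genes known as vitamin D targets went in both directions, with 3 of 11 tested genes up and 6 down (median -0.13, beside 0.02 over all genes). Slc30a10, a manganese exporter gene, fell from 130 to 91.5 CPM (-0.51, edgeR adjusted p = 1.60e-07). Cyp3a11, a drug and steroid oxidase gene, fell from 4.35 to 1.54 CPM (-1.49, edgeR adjusted p = 5.42e-06), and Txnip, which codes for an inhibitor of thioredoxin, fell from 281 to 226 CPM (-0.31, edgeR adjusted p = 4.85e-06). The drug efflux pump gene Abcb1a fell from 319 to 265 CPM (-0.27, edgeR adjusted p = 3.13e-04), a call that was lost on log2(TPM + 1) (-0.11), while the value was -0.56 with both trends removed. Cldn2, a claudin of cation-permeable tight junctions, fell from 508 to 466 CPM (-0.13, edgeR adjusted p = 0.00999), a call lost without wild-type library 1 (-0.11), with library totals as the scale (-0.09) and on log2(TPM + 1) (0.01). Igfbp3, which codes for a carrier of insulin-like growth factors, rose from 5.68 to 19.0 CPM (1.74, edgeR adjusted p = 6.17e-10). Fibroblast and endothelial markers, given above, also rose, and their part in the Igfbp3 value was not tested. On log2(TPM + 1) Cyp3a11 was at -0.99 and Txnip at -0.15, and with both trends removed Slc30a10 was at -0.79. The split was 3 up and 3 down on log2(TPM + 1) (median 0.008, beside 0.14 over all genes). With both trends removed it was 3 up and 5 down (median 0.009, beside -0.006 over all genes). Spp1 was too low to test.

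The calcium list, which covers entry channels, binding proteins, stores and pumps, had 8 of 23 tested genes up, 4 down and 11 not past the threshold (median 0.002, beside 0.02 over all genes). Trpm7, a divalent cation channel with a kinase domain, rose from 160 to 290 CPM (0.86, edgeR adjusted p = 4.22e-10). Calm3, one of the genes that code for the calcium sensor calmodulin, fell from 648 to 461 CPM (-0.49, edgeR adjusted p = 2.71e-08). Calm2, which codes for the same protein, was at 217 and 212.5 CPM and not past the threshold. On log2(TPM + 1) Calm2 was at 0.13, with the Git2-knockout libraries higher in TPM without overlap, and Calm3 at -0.33. Among the store pumps, Atp2a3 fell from 64.6 to 52.3 CPM (-0.30, edgeR adjusted p = 1.16e-04), Atp2c1 of the Golgi rose from 76.4 to 92.4 CPM (0.27, edgeR adjusted p = 1.43e-04), and Atp2a2 was at 268 and 282 CPM and not past the threshold. The call of Atp2a3 was lost on log2(TPM + 1) (-0.14) and with the GC trend removed (-0.13), that of Atp2c1 with the GC trend removed (0.07), and with both trends removed Trpm7 was at 0.24 and Calm3 at -0.28. The split was 11 up and 1 down on log2(TPM + 1) and 4 up and 8 down with both trends removed. Trpv5, the closest relative of Trpv6, and Calb1, Calb2, Atp2b2, Casr and Pth1r were too low to test.

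Phosphate handling beyond the members was lower in most tested genes, with 4 of 15 up and 8 down (median -0.23, beside 0.02 over all genes). Slc34a3, a further sodium-phosphate cotransporter gene of the Slc34a2 family, fell from 40.9 to 24.6 CPM (-0.73, edgeR adjusted p = 3.07e-08). A pair of PDZ scaffold genes whose proteins anchor transporters at the brush border fell: Slc9a3r1 from 1076 to 768 CPM (-0.49, edgeR adjusted p = 7.02e-08) and Pdzk1 from 543 to 399 CPM (-0.44, edgeR adjusted p = 1.81e-07). The kinase gene Sgk1 fell from 420 to 320 CPM (-0.39, edgeR adjusted p = 4.34e-07). Alpi, the intestinal alkaline phosphatase of the brush border, fell from 2943 to 2510 CPM (-0.23, edgeR adjusted p = 3.95e-05), and Slc25a3, the mitochondrial phosphate carrier, from 661 to 564 CPM (-0.23, edgeR adjusted p = 1.08e-04). The latter pair lost their calls on log2(TPM + 1) (-0.07 and -0.06), as did Slc25a3 with the length trend removed (-0.06), and Alpi was at -0.06 with both trends removed. Slc9a3r1 was at -0.29 with the GC trend removed and -0.22 with both removed, and on log2(TPM + 1) Pdzk1 was at -0.28 and Sgk1 at -0.23. Epithelial markers fell beside these genes, from 10090 to 10530 CPM to 9031 to 9287 CPM in sum, and their part was not tested. The split was 7 up and 5 down on log2(TPM + 1), where the list's median was -0.06 and that of all genes 0.14, and 2 up and 9 down with both trends removed (median -0.16). Slc34a1, Kl, Fgf23, Akp3 and Alpl were too low to test.

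**Figure D5:**
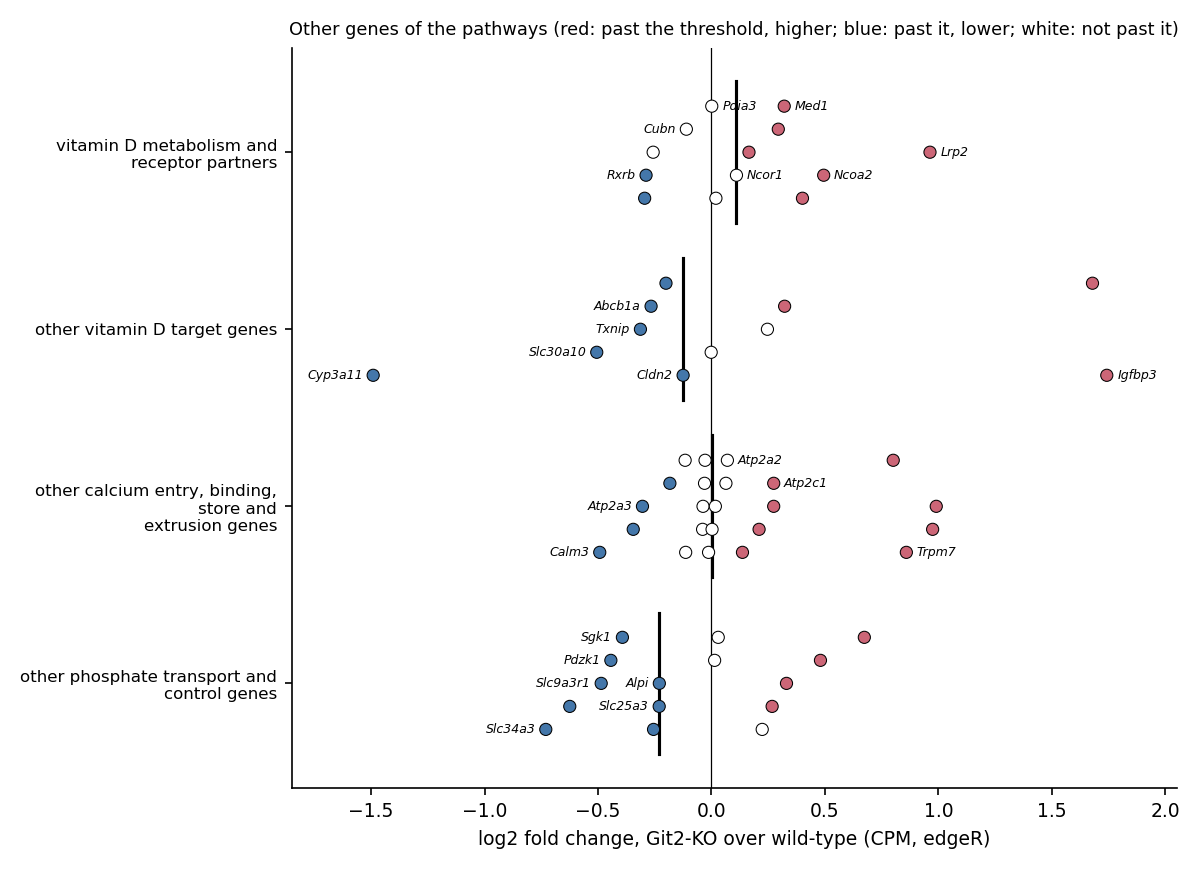
Log2 fold change of each of the 62 tested genes of the 4 pathway lists, Git2-knockout over wild-type, with vertical offsets only to separate points and a thick line at each list's median. Points past the threshold lie on both sides of 0 in every list, and the phosphate list has its median at -0.23.

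The genes whose pattern over the 6 libraries was most like that of a member were found among 5953 genes by the distance between log2 CPM values centred on each gene's mean. Nearest to Slc20a1 were Arhgap5 (73.3 and 163 CPM, distance 0.108), Nnt (81.0 and 202.5 CPM, 0.161) and Ccdc68 (40.9 and 85.7 CPM, 0.207). Nearest to S100g were Erich4 (77.3 and 42.6 CPM, 0.0631), Prxl2b (67.1 and 36.9 CPM, 0.0756) and Gstp1 (215 and 117 CPM, 0.0823). With 6 libraries in 2 groups, this likeness is mostly that of the difference between the groups.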

How the data were processed

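Poly(A) RNA of 3 wild-type and 3 Git2-knockout libraries was analysed, grouped by the sample titles. The table's estimated counts, which the authors deposited per the file headers as read counts, are not whole numbers in 58.9% to 69.2% of values. FPKM values were deposited by the authors in the same table, per the file headers. TPM values, also deposited by the authors per the file headers, sum to 1000000 per library. HISAT, Bowtie2, RSEM and GRCm39 are named, without versions, per the submitters' processing notes. The strand setting and the annotation were not given in the sources used here.

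Counts were rounded and fitted in R 4.3.3 with edgeR 4.0.16: filterByExpr, TMM, robust quasi-likelihood test, two-sided, no covariates, Benjamini-Hochberg adjustment over 13558 genes, threshold 0.05. Fold changes are on the log2 scale of CPM unless log2(TPM + 1) is named. A standard error is the fold change over the root of its F statistic. Total counts per library ran from 16284414 to 19106581, and a count of 0 allows 3 reads. Implied transcript length was the count divided by FPKM and by the library total, for FPKM of at least 5. Length covered 86.3% and GC content 97.9% of tested genes. Alternatives were RLE, upper quartile and library-total scaling, DESeq2 1.42.0, limma 3.58.1 (limma-trend) on log2(TPM + 1), no filter, 5 CPM in 3 libraries, loess removal of length and GC trends (span 0.5), the replicate number as a block, and leaving out each library. On simulated data with 13430 genes, the simulated Git2-knockout comparison recovered 56% of genes changed 1.25-fold, 80% at 1.5-fold, 90% at 2-fold and 100% at 4-fold. Unlike the data, the simulation changed only a small part of the genes and held no length or GC trend. Its rates therefore need not hold for these data.

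The members and lists were chosen with earlier results of these data known. Named genes are the members, Git2, up to 4 genes past the threshold with the smallest p and up to 3 with the highest CPM per pathway list, and the 3 genes most like Slc20a1 and S100g (mean log2 CPM of at least 5, prior count 2). Calm2 is named as well, beside Calm3. The rule also takes the 3 most abundant genes of each marker list, which are given here as sums. A gene that the rule takes is not reported here. Motifs were searched on both strands of 250 bases before each RefSeq start site.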

Additional observations from a re-analysis of the deposited data

How the results depend on the processing

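Over 17 alternatives the log2 difference of S100g ran from -0.99 to -0.42 and that of Slc20a1 from 1.10 to 1.36; both genes were selected on this contrast, so this is a description. The number of members past the threshold, 3 of 7 tested as reported, was 5 with upper quartile scaling and 5 with library totals. It was 6 with the length trend removed, 5 with the GC trend removed and 5 with both removed, and 3 to 5 when each library was left out in turn. In the same order, 7760, 7678, 7221, 6279 and 5938 of all 13558 genes were past it, and 6580 to 8343 genes when each library was left out. Most of these all-gene counts are themselves large, so the member counts are read no further. Under the replicate block the number of members was 3, with 39 pathway genes beside 41 and 7441 genes in all beside 7725, and the block changed no call of a member. Deviations of same-numbered libraries correlated at 0.04, -0.001 and 0.05. Wild-type libraries 1 and 3 correlated best with the Git2-knockout library of their number, and wild-type library 2 with Git2-knockout library 1 (0.03). Over all pairs across the groups the values ran only from -0.07 to 0.05. Values this small cannot decide whether the numbers pair libraries. In the Git2-knockout libraries, 5 of 7 ranks by mean TPM were those of wild-type, though Vdr and Rxra overlap in both groups. On log2(TPM + 1) Slc34a2 (0.00474) and Cldn2 (0.00806) turned sign. So did Vdr (0.06), Rxra (0.07) and Cubn (0.04), which were past the threshold neither in the main fit nor on this scale. Calm2 turned sign there as well (-0.03 in the main fit, 0.13). Atp2b1 turned sign with the length trend (-0.16), the GC trend (-0.14) or both (-0.36) removed, and Vdr (0.02) and Rxra (0.12) with the GC trend removed. Ncor1 did so after removal of the length trend (-0.21) or of both trends (-0.26), Pdia3 with the GC trend removed (-0.15) and with both removed (-0.11), and Atp2a2 (-0.13) and Atp2c1 (-0.0275) with both removed. The cause was not tested. Depth limits Trpv6 and Cyp24a1, for which no comparison could be made.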

Other observations

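Markers of gut segment and of age, which set where and when calcium and phosphate are absorbed, differed between the groups as well. The counts below stand beside 29.6% of all genes tested that rose and 27.4% that fell. Of the 6 genes of distal small intestine, 5 fell and 1 rose, and their sum went from 1185 to 1216 CPM in wild-type to 715 to 774 CPM in the libraries labelled Git2-knockout. Fgf15, the ileal hormone gene induced by bile acids, fell from 336 to 178 CPM (log2 fold change -0.91, edgeR adjusted p = 4.97e-11). Of the 5 tested genes of proximal small intestine, 3 fell and 1 rose, while their sum overlapped between the groups (861 to 886 and 864 to 919 CPM). Among them Gata4, a transcription factor gene of jejunal identity, fell from 31.1 to 20.3 CPM (-0.62, edgeR adjusted p = 7.99e-07), and the fatty acid binding protein gene Fabp1 fell from 30.0 to 6.71 CPM (-2.16, edgeR adjusted p = 7.58e-12). The iron exporter gene Slc40a1 was at 790 and 853 CPM, a small rise that lost its call under 9 alternatives. Colon markers summed to 123 to 135 CPM and 132 to 136 CPM.

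Of 4 markers of the suckling enterocyte, 2 rose and 2 fell. Lct, the lactase gene, fell from 2086 to 1385 CPM (-0.59, edgeR adjusted p = 3.01e-07), and Prdm1, which codes for the repressor Blimp1 of the neonatal gut, rose from 104 to 148 CPM (0.51, edgeR adjusted p = 6.65e-08; 0.28 with the length and GC trends removed). Of 2 tested markers of the weaned enterocyte, 1 rose and 1 fell. Absorptive enterocyte markers summed to 24630 to 25480 CPM in wild-type and 18910 to 20290 CPM in the others, with 5 of 6 lower and 1 higher. Myeloid markers summed to 216 to 220 and 114 to 116 CPM (1 of 4 tested up, 1 down), a difference carried by Csf1r (197 and 90.7 CPM), while Cd68 was at 14.5 and 15.9 CPM and C1qa at 4.12 and 5.69 CPM. T cell markers summed to 3.77 to 4.27 and 3.16 to 4.12 CPM (1 of 2 tested down), and those of neurons and glia to 1.70 to 1.99 and 2.003 to 2.23 CPM (the 1 tested gene did not pass). The part of segment or age in the members' values was not tested.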
